A study of Mus musculus with 6 samples.

Results

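The genes described here are 40 members of the cell adhesion and YAP system: integrin subunits, the scaffold proteins and kinases of focal adhesions, cadherins and catenins, and components of the Hippo and YAP pathway. They were chosen by name, and each was read by the brightest of its probe sets that carry a single gene symbol. Of the 40 genes, 38 had such a probe set, out of 18193 genes with one in the whole series, and all 38 passed the filter on dim probe sets. Itga11, a collagen-binding integrin subunit, and Ptk2, which encodes focal adhesion kinase, had none and are not analysed here.

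Transcript levels came from Affymetrix arrays of the mouse genome, 1 array for each culture, with 3 cultures of Zmpste24-/- and 3 cultures of wild-type (Zmpste24+/+) embryonic fibroblasts. All cultures were of strain C57BL/6, from E13.5 embryos, grown in fetal calf serum to passage 3, and none received an agent. Zmpste24 encodes the metalloprotease that trims prelamin A into lamin A, and the comparison asks how its loss shows in the transcripts of early-passage fibroblasts. Cultures carry the numbers 1 to 3 within a genotype, and the labels mention pairs but not what a shared number stands for.

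Integrins are pairs of an alpha and a beta subunit that bind matrix proteins outside the cell. Inside, talins and kindlins bind the beta subunit, and a layer of scaffolds and kinases ties it to actin. YAP and TAZ are co-activators that enter the nucleus in spread, tense cells and act through TEAD factors, while the LATS kinases of the Hippo pathway and the angiomotins hold them back. In fibroblasts, adhesion and actin tension are known inputs of YAP and TAZ.

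Several facts of the series bear on every value below. Both arrays numbered 1 stood apart from the other 4 in correlations over the 27022 probe sets that passed the filter on dim ones. Their correlation with each other was r = 0.985, against 0.927 to 0.934 between a number 1 array and any of the other 4. Within the other 4 it was 0.98 to 0.987. The targeted gene was lower in Zmpste24-/- cultures, at signals of 365, 182 and 226, against 3849.9, 2249 and 2043 in wild-type cultures. This was a log2 difference of -3.31 (SE 0.34), and limma gave it an adjusted p of 0.987 over all probe sets, and 4.0e-05 with the culture number as a block. Xist, expressed from the inactive X chromosome, had signals of 6669, 4766 and 6660.1 in Zmpste24-/- cultures, against 5324, 69.3 and 43.7 in wild-type cultures 1, 2 and 3. Eif2s3y, which is Y-linked, was at most 15.7 in Zmpste24-/- cultures, against 1.5, 531 and 1341 in wild-type cultures 1, 2 and 3, and Kdm5d was at most 11.8 against 12.9, 326 and 415. Genotype and sex of the embryo therefore cannot be told apart in numbers 2 and 3. Within wild type, number 1 against numbers 2 and 3 cannot be told apart from sex either. In Zmpste24-/- cultures all numbers had high Xist and low Y-linked signals. The fibroblast label fitted its markers: Col1a1, Col1a2, Col3a1, Pdgfra, Pdgfrb, Thy1, Vim and Fap were all measured, with summed signals of 81057 to 88992 in Zmpste24-/- cultures and 83797 to 92944 in wild-type cultures.

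No member passed the test between Zmpste24-/- and wild-type cultures. In limma on log2(signal + 16), 0 of 38 members had a Benjamini-Hochberg adjusted p under 0.05, beside 0% of the 27022 probe sets tested (percent called 0). With the culture number as a block, 0 of 38 members were called, beside 0.0185% of probe sets. The mean log2 difference, Zmpste24-/- minus wild type, was below 0 for 26 members and above 0 for 12. Its median was -0.04 over the members and -0.0036 over 13038 genes, and its median size was 0.10 over both. The smallest adjusted p of a member was 0.9999 without the block, and 0.501 with it. The genotype SE and p of each gene below are without the block unless stated, so they include the spread between culture numbers. In that test Zmpste24 itself had an adjusted p of 0.987 by limma, so a high value does not show equal levels. Among the brightest probe sets, only Itgb8 passed at an unadjusted p under 0.05 without the block. That is 1 of 38 members, beside 1.04% of genes. With the block 5 members passed, namely Itgb8, Itgb1, Itgb3, Tns1 and Ilk, beside 9.3% of genes.

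**Figure D1:**
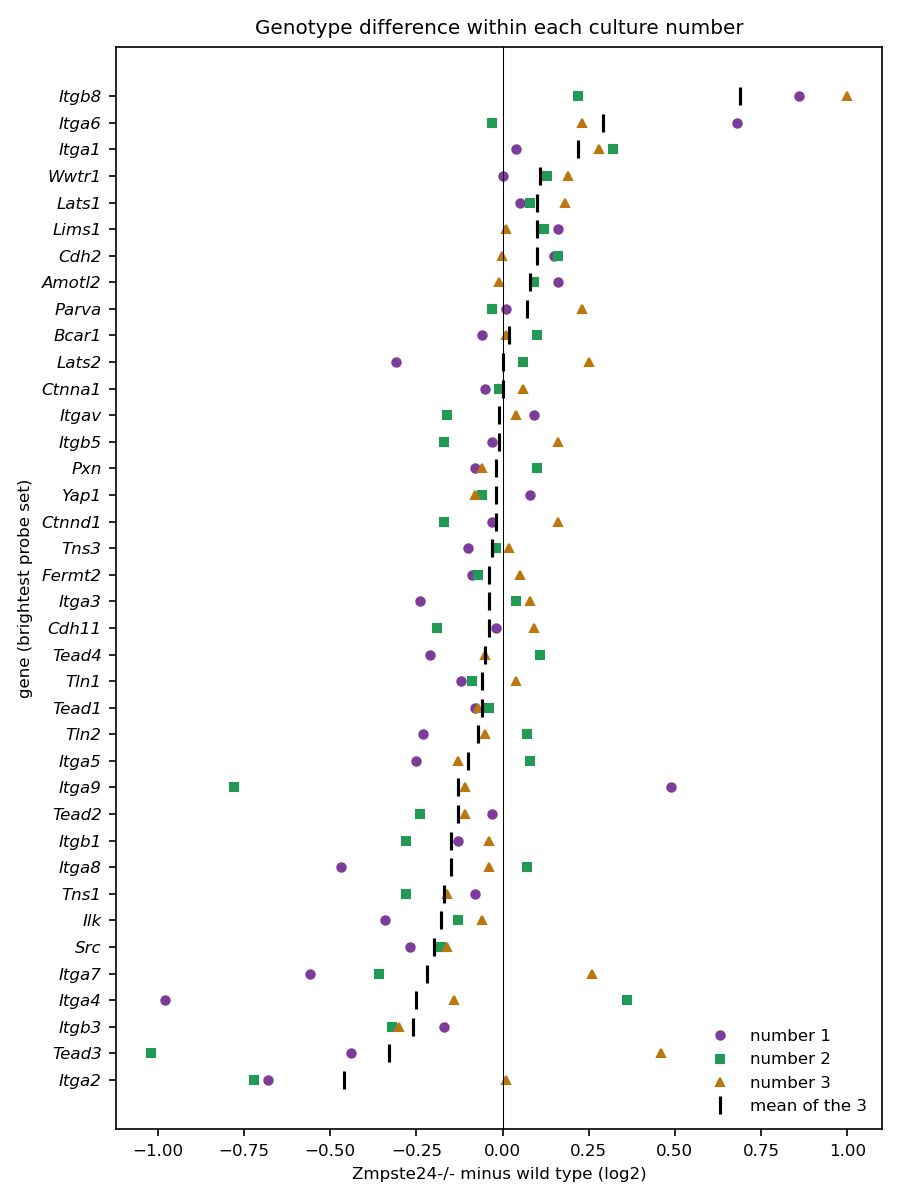
Log2 difference in signal, Zmpste24-/- minus wild type (horizontal axis), for the 38 measured members (rows), within culture numbers 1, 2 and 3 (coloured points) and as their mean (black bar). Itgb8 lies to the right in each number (0.86, 0.22 and 1.0), while the points of most genes straddle 0.

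Itgb8 encodes the beta subunit that pairs with the alpha-v subunit and is known for binding latent TGF-beta. Its signals were 79.9, 63.9 and 94.7 in Zmpste24-/- cultures, against 37.0, 52.7 and 39.3 in wild-type cultures. Every Zmpste24-/- culture lay above every wild-type culture, and the gap was narrowest in number 2. The wild-type signals lay near the filter on dim probe sets, 39.4, and Itgb8 had no other probe set to compare. The log2 difference was 0.69 (SE 0.23, unadjusted p = 0.0203 by limma across all genes, adjusted p = 0.9999). Lats1, a kinase that phosphorylates YAP, was the other member whose genotypes did not overlap with Zmpste24-/- above. It had signals of 1868, 1802 and 1885 in Zmpste24-/- cultures, against 1801, 1701 and 1661 in wild-type cultures. Its ranges met within 1 signal unit, and the log2 difference was 0.10 (SE 0.13, adjusted p = 0.9999 by limma). Non-overlap in that direction was seen in 2 of 38 members, beside 2.1% of genes.

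Tns1, which encodes a tensin of fibrillar adhesions, was the only member with every Zmpste24-/- culture below every wild-type culture, beside 2.65% of genes. Its signals were 2312, 2185 and 2250.5 in Zmpste24-/- cultures, against 2440.0, 2664 and 2519 in wild-type cultures. The separation was small, at -0.17 on the log2 scale (SE 0.12, adjusted p = 0.9999 by limma). Both other tested probe sets of Tns1 also had negative differences, -0.11 and -0.56, and neither was called between genotypes. The probe set at -0.56 had 509.7, 613 and 471 in Zmpste24-/- cultures, against 719.9, 889 and 764 in wild-type cultures. Its unadjusted p was 0.0179 by limma. Itgb1, the common beta partner of most matrix-binding alpha subunits, had 6067, 6184 and 6688 in Zmpste24-/- cultures, against 6627, 7494 and 6882 in wild-type cultures. By its brightest probe set it was lower in Zmpste24-/- within each number, by small steps. The mean log2 difference was -0.15 (SE 0.10, adjusted p = 0.9999 by limma). A probe set of Itgb1 nearly as bright had 5812, 6045 and 6748 in Zmpste24-/- cultures, against 6127, 6882 and 5848 in wild-type cultures. Its mean log2 difference was -0.02, and the dimmer tested Itgb1 probe sets had -0.24 and 0.36.

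Within each of the 3 numbers the Zmpste24-/- culture had the lower signal for 7 of 38 members and the higher signal for 5. Over all genes this held for 2107 and 2064 of 13038, so the members were near the shares of all genes. Itgb3, a beta subunit for vitronectin and fibronectin, belonged to the 7, with log2 differences of -0.17, -0.32 and -0.30 in numbers 1, 2 and 3. Src, a tyrosine kinase activated at adhesions, also belonged to them, with -0.27, -0.18 and -0.16. Ilk, the pseudokinase that joins PINCH and parvin to beta tails, had -0.34, -0.13 and -0.06. None of these passed the test. Itga2, a collagen receptor subunit, had the most negative mean, -0.46 (SE 0.24). It came from numbers 1 and 2 (-0.68 and -0.72) and not from number 3 (0.01). The signals of Itga2, 36.8 to 73.4, lay near the filter on dim probe sets, 39.4. The genotype difference of Tead3 varied between numbers more than that of any other TEAD gene, at -0.44, -1.02 and 0.46. Itga4, which binds fibronectin and VCAM1, had 1 array apart, wild-type culture 1 at 597, while the other 5 lay between 267 and 346. Without Zmpste24-/- culture 1, Itga4 was called higher in number 1, which then is that wild-type array alone. A test of whether the genotype difference in number 1 differs from that in numbers 2 and 3 called 0 of 38 members, beside 0.0259% of probe sets, and its smallest adjusted p among members was 0.667, for Itga4.

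Within either genotype the members differed far more by culture number. This comparison sets cultures of the same genotype against each other, with genotype as a covariate, so each number is 2 arrays. In the F-test of the culture number 22 of 38 members (57.9%) were called at an adjusted p under 0.05, beside 47% of genes. All 22 stood apart in number 1 from both other numbers in 1 direction. In number 1, 7 were higher (18.4%, beside 22.5% of genes) and 15 were lower (39.5%, beside 19.2% of genes). The higher ones were Itga1, Itga7, Itga8, Itgb5, Cdh11, Yap1 and Wwtr1. The lower ones were Itga5, Itga6, Itgav, Itgb3, Tln1, Fermt2, Parva, Lims1, Bcar1, Ilk, Ctnna1, Tead1, Tead2, Tead4 and Amotl2. Between numbers 3 and 2, 0 of 38 members were called, beside 0.0074% of probe sets.

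**Figure D2:**
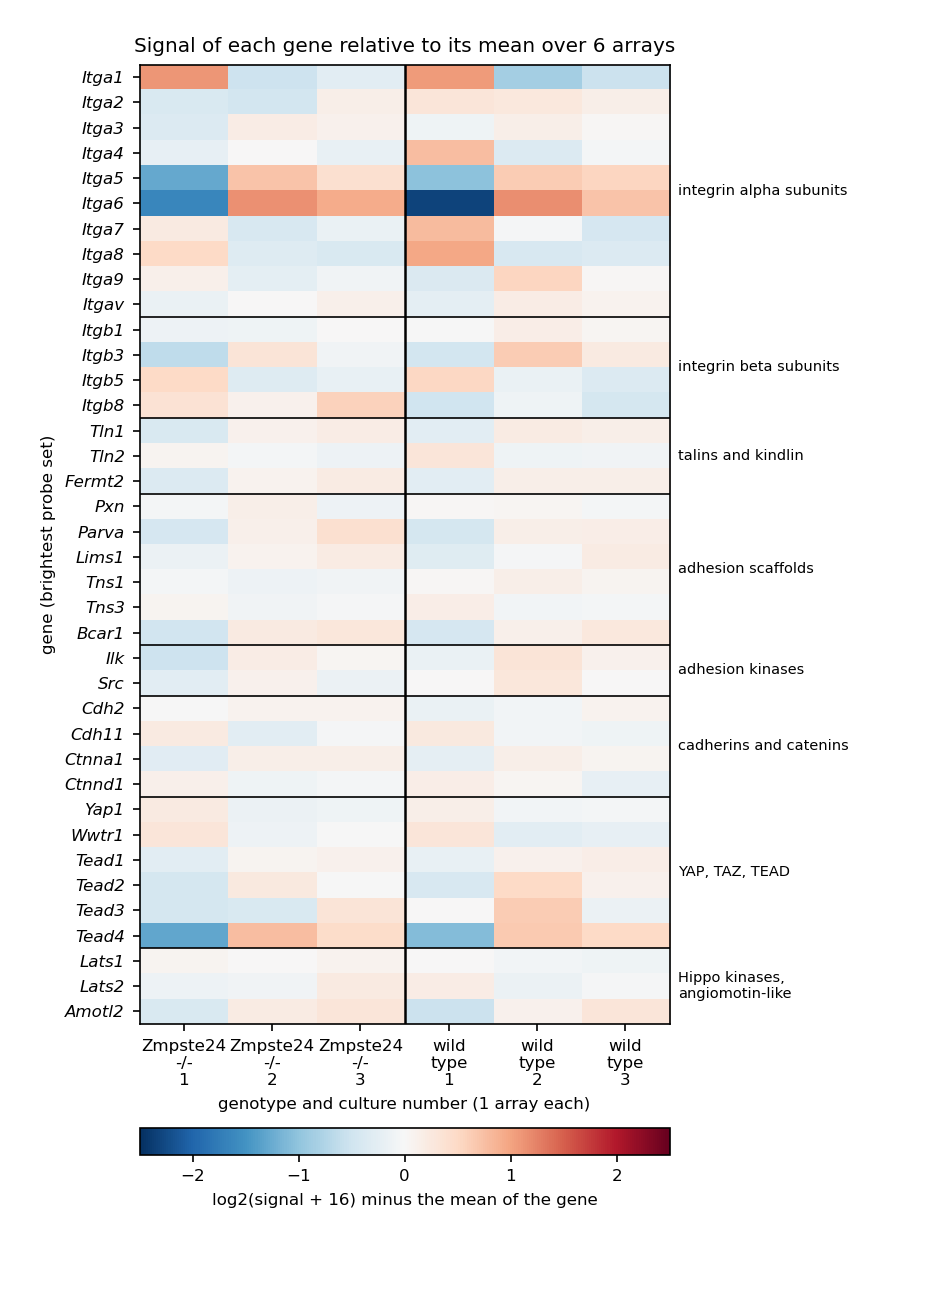
Signal of the 38 measured members (rows, grouped by role) on each of the 6 arrays (columns, by genotype and culture number), as log2(signal + 16) minus the mean of the gene. Columns numbered 1 carry the strongest colours in both genotypes, with Itga6, Itga5 and Tead4 low and Itga1 and Itga8 high.

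The median log2 difference of number 1 minus number 2 was -0.18 over the members and 0.06 over all genes, and that of number 1 minus number 3 was -0.16 and 0.03. These contrasts share the number 1 arrays, so they are not separate evidence. The median size was 0.40 and 0.36 over the members, and 0.42 and 0.40 over all genes, so the members moved about as far as other genes. Other gene groups moved along with number 1. Macrophage markers were higher in 10 of 10 genes; Ptprc and C1qa among them passed the filter on dim probe sets only through number 1, so their direction was fixed by it, and the other 8 had a mean above the filter in the other 4 cultures as well. The list had summed signals of 13946 and 7549 in number 1 (Zmpste24-/- and wild type) and 1492 to 2252 in the other 4 cultures. None of these markers was at 0, and C1qa lay between 3.18 and 9.02 in the other 4 cultures. Proliferation genes were lower in 9 of 9, at 5725 and 5767 in number 1 and 21183 to 24436 in the others. Skeletal muscle markers were lower in 3 of 3 tested genes, with summed signals over the list of 587 and 871 in number 1 and 2188 to 4399 in the others. The mural and smooth muscle list was called in 6 of 6 genes, 4 lower (Acta2, Tagln, Cspg4 and Des, the last also on the skeletal muscle list) and 2 higher (Rgs5 and Myh11), at summed signals of 34174 and 35792 in number 1 and 41780.3 to 45295 in the others. Of 4 tested epithelial markers 1 was lower, the keratin gene Krt18, at 128 and 116 in number 1 and 579 to 897 in the others, while Cdh1 stayed at or under 19.2 on every array. Of the endothelial list 1 of 3 was lower (Kdr), of the neural and glial list 1 of 5 was higher (Nefm), and of the fibroblast markers 3 of 8 were higher (Col3a1, Pdgfra and Pdgfrb). The part of these groups in the results by culture number was not tested, and in bulk RNA fewer cells of a type and less RNA per cell cannot be told apart.

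Among the alpha subunits, 3 of 10 were higher and 3 of 10 lower in number 1 (30% each, beside 22.5% and 19.2% of genes). Itga6, a laminin receptor subunit, had the widest difference of any member. Its signals were 217, 1560.3 and 1354 in Zmpste24-/- cultures 1, 2 and 3, and 129, 1591 and 1154 in wild-type cultures 1, 2 and 3. Both number 1 cultures were far below the other 4, whose mean was 8.18 times that of number 1. The log2 differences of number 1 were -3.11 (SE 0.17) from number 2 and -2.78 (SE 0.17) from number 3, with limma adjusted p of 1.2e-05 and 1.9e-05. Itga5, the alpha subunit of the classical fibronectin receptor, had 760.2, 3075 and 2457 in Zmpste24-/- cultures and 909, 2914 and 2699 in wild-type cultures. Again number 1 was low in both genotypes and the ranges were well apart, with the other 4 at 3.34 times number 1. The log2 differences were -1.83 and -1.61 (SE 0.10 each), with limma adjusted p of 1.4e-05 and 2.4e-05. That probe set is marked as shared between transcripts, and the brightest Itga5 probe set without the mark had smaller differences in the same direction, -1.16 and -1.0 (limma adjusted p = 0.00899 and 0.0183).

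Itga1, a collagen receptor subunit, ran the other way. Its signals were 751, 231 and 282 in Zmpste24-/- cultures 1, 2 and 3, and 729, 181 and 229 in wild-type cultures 1, 2 and 3. Number 1 was at 3.21 times the mean of the other 4, and the 2 genotypes within number 1 were close. Log2 differences were 1.78 and 1.49 (SE 0.15 each), with limma adjusted p of 6.2e-05 and 1.5e-04. Itga8, a receptor subunit for nephronectin and other RGD ligands, had 1727, 973 and 934 in Zmpste24-/- cultures and 2399, 929.5 and 963 in wild-type cultures. It was high in number 1 in both genotypes, more so in wild type, with log2 differences of 1.08 and 1.09 (SE 0.14 each). Itga7, the laminin receptor subunit known from muscle, had 265, 166 and 197 in Zmpste24-/- cultures and 398, 218 and 163 in wild-type cultures. Number 1 was above the rest at log2 differences of 0.73 and 0.81 (SE 0.22 each), but the adjusted p of 1 contrast was 0.0616 without the filter on dim probe sets, and leaving out any of wild-type cultures 1, 2 and 3 or Zmpste24-/- culture 2 also ended the call (adjusted p of the weaker contrast 0.21, 0.0688, 0.211 and 0.156 by limma).

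**Figure D3:**
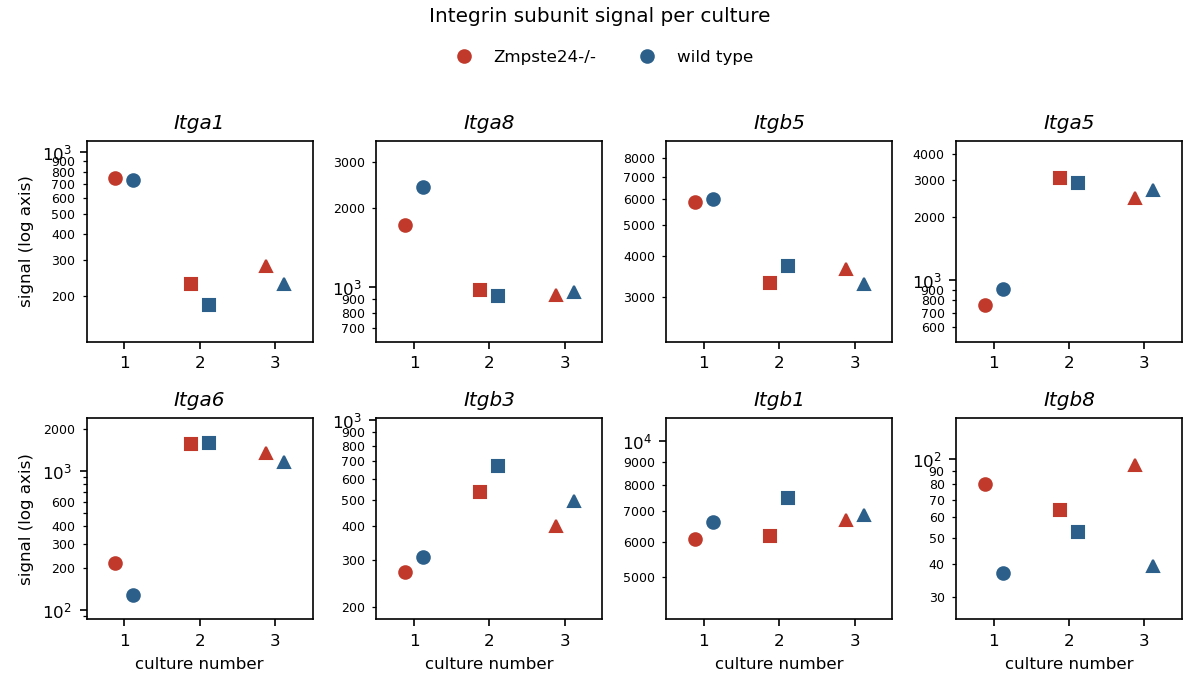
Signal on a logarithmic axis of 8 integrin subunits in each culture, by culture number (horizontal axis), with Zmpste24-/- in red and wild type in blue. Itga1, Itga8 and Itgb5 are high and Itga5, Itga6 and Itgb3 low in both number 1 cultures, while Itgb8 is higher in Zmpste24-/- in each number.

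Itgav, the alpha subunit shared by the vitronectin receptors, was called lower in number 1 at small log2 differences of -0.30 and -0.31 (SE 0.07 each), and the call was lost without wild-type culture 1, wild-type culture 2 or Zmpste24-/- culture 3 (adjusted p of the weaker contrast 0.0849, 0.079 and 0.0844 by limma). Itga3, a laminin receptor subunit, was low in number 1 (299 in Zmpste24-/- and 355 in wild type, below each of the other 4 cultures) but was not called, with an adjusted p of 0.119 in the F-test. The F-test adjusted p was 0.789 for Itga2 and 0.778 for Itga9, a tenascin and osteopontin receptor subunit. Of the beta subunits, Itgb5 and Itgb3, which both pair with the alpha-v subunit, moved in opposite directions. Itgb5 had 5876, 3324 and 3674 in Zmpste24-/- cultures and 5992, 3744 and 3294 in wild-type cultures. Its number 1 cultures were above all others, at log2 differences of 0.75 and 0.77 (SE 0.09 each, limma adjusted p = 3.4e-04 and 3.3e-04). Itgb3 had 271, 537 and 401 in Zmpste24-/- cultures and 308, 673 and 499 in wild-type cultures. Its number 1 cultures were below all others, at log2 differences of -1.02 and -0.60 (SE 0.13 each), and the contrast with number 3 reached an adjusted p of 0.0744 without wild-type culture 3 and 0.0502 without Zmpste24-/- culture 3. Itgb1 was not called, at -0.10 from both other numbers (SE 0.07 each), nor was Itgb8.

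By their brightest probe sets, the genes of proteins that bind beta tails and of their partners were called in the lower direction or not at all. Tln1, the talin of most cells, had 2163, 3052 and 3236 in Zmpste24-/- cultures and 2348, 3246 and 3146 in wild-type cultures. Fermt2, the kindlin of fibroblasts, had 5333, 7183 and 7821 in Zmpste24-/- cultures and 5677, 7549 and 7539 in wild-type cultures. In both genes number 1 was below the other 4 in each genotype, at log2 differences of -0.48 and -0.50 for Tln1 (SE 0.08) and -0.42 and -0.48 for Fermt2 (SE 0.06). Tln2, the second talin, was not called by its brightest probe set (0.25 and 0.28), while a dimmer one was called higher in number 1 (1.46 and 1.01). Ilk, Lims1 and Parva encode the ILK, PINCH and parvin proteins that form 1 complex, and all 3 were lower in number 1. Their log2 differences were -0.60 and -0.43 for Ilk (SE 0.08), -0.25 and -0.43 for Lims1 (SE 0.07) and -0.57 and -0.72 for Parva (SE 0.09). The call of Lims1 was lost without wild-type culture 1, wild-type culture 2 or Zmpste24-/- culture 2 (adjusted p 0.159, 0.0663 and 0.105 from number 2 by limma). A second probe set of Parva was called in the opposite direction (0.27 and 0.40), so the direction of Parva depends on the probe set.

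Bcar1, a docking protein phosphorylated by Src, had 906, 1485 and 1544 in Zmpste24-/- cultures and 947, 1388 and 1529.6 in wild-type cultures. Number 1 was clearly below the rest, at log2 differences of -0.62 and -0.72 (SE 0.10 each, limma adjusted p = 0.00148 and 7.7e-04). Pxn, Src, Tns1 and Tns3 were not called, and Pxn, which encodes the scaffold paxillin, stayed between 2472 and 2973 in all 6 cultures. Among the adherens junction genes, Cdh11, the cadherin typical of mesenchyme, was higher in number 1 at log2 differences of 0.39 and 0.31 (SE 0.07 each), and Ctnna1, the alpha-catenin that ties cadherins to actin, was lower at log2 differences of -0.40 and -0.36 (SE 0.06 each). Cdh2, the neural cadherin, and Ctnnd1, the catenin that stabilises cadherins at the membrane, were not called. The call of Cdh11 was lost without wild-type culture 3 (log2 difference 0.21 from number 3). It was also lost with median centring (0.24 and 0.25, limma adjusted p = 0.0858 and 0.0771). Without the intensity trend it was lost too (limma adjusted p = 0.0744 and 0.132). Over the average of its probe sets Cdh11 was at 0.80 and 0.66, while Ctnna1 was no longer called, at -0.14 from number 2.

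The YAP branch holds the TEAD genes and the co-activators. TEAD factors bind the letters GGAATG or their reverse complement CATTCC, and the promoters that carry these letters are shown for 3 called members and for Ankrd1 and Ccn1, textbook targets of YAP. The sequences are the 250 bases before the annotated start, 5′ to 3′ on the strand of the gene, from RefSeq on assembly GRCm38.p6, with the matched letters in capitals. Amotl2 lies on the plus strand at chr9:102717554-102717803, Yap1 on the minus strand at chr9:8004597-8004846 and Wwtr1 on the minus strand at chr3:57575911-57576160. Ankrd1 lies on the minus strand at chr19:36119845-36120094 and Ccn1 on the minus strand at chr3:145649986-145650235.
Amotl2: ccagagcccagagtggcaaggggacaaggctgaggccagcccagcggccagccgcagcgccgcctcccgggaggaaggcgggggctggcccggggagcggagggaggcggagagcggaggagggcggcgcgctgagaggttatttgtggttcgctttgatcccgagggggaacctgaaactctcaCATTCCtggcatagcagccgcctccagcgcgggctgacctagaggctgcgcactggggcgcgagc
Yap1: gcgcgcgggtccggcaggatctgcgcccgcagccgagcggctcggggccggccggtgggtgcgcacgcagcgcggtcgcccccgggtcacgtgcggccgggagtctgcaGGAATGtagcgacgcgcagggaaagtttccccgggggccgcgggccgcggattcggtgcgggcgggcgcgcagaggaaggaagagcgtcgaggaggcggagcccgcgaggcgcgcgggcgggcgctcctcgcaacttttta
Wwtr1: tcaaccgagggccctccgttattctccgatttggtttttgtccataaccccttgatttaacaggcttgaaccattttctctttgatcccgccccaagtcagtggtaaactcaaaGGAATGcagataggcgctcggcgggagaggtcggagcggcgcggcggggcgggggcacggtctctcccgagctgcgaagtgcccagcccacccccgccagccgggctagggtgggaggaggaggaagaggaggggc
Ankrd1: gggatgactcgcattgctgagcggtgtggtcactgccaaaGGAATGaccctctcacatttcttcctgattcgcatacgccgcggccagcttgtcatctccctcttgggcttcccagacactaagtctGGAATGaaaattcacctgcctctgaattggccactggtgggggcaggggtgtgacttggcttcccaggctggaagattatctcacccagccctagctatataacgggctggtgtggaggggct
Ccn1: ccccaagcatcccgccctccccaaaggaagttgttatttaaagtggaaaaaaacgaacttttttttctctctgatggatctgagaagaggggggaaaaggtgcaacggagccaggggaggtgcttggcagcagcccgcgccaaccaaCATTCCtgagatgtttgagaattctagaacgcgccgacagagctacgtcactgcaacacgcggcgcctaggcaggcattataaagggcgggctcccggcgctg
The match begins 65 bases before the start in Amotl2, 141 in Yap1, 136 in Wwtr1 (from the upstream one of its 2 listed starts), 103 in Ccn1, and 210 and 123 in Ankrd1, which has a pair of them. A promoter was listed for 28 members, and 5 of them held the letters on either strand (17.9%), the others being Itgb1 and Tead3. Of 15 listed YAP and TAZ target genes 6 held them (40%), and of 27025 genes 14.4% did in any of their promoters, or 12.6% of 32851 single promoters. Amotl2 counts among both the members and the targets with the letters. A match is a description of the sequence, not a binding site.

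Yap1 and Wwtr1, which encodes TAZ, were called higher in number 1. Wwtr1 had 5301, 3913 and 4259 in Zmpste24-/- cultures and 5297, 3574 and 3731 in wild-type cultures. Its number 1 cultures were above the other 4 in both genotypes, at log2 differences of 0.50 and 0.41 (SE 0.08 each). Yap1 had 7063, 5495 and 5574 in Zmpste24-/- cultures and 6692, 5736 and 5878 in wild-type cultures. The log2 differences were small, 0.29 and 0.26 (SE 0.07 each, limma adjusted p = 0.00919 and 0.0154). A dimmer Yap1 probe set was called in the opposite direction, at 444, 1004 and 809.6 in Zmpste24-/- cultures and 521, 811 and 832 in wild-type cultures (-0.89 and -0.75). The direction of Yap1 thus depends on the probe set, and over the average of both sets it turned to -0.30 and -0.24. Its call was also lost without wild-type culture 3 or any 1 of the Zmpste24-/- cultures (adjusted p of the weaker contrast 0.0561 to 0.162 by limma). With each array centred on its median neither Yap1 nor Wwtr1 was called, at log2 differences of 0.13 and 0.21 for Yap1 and 0.34 and 0.35 for Wwtr1. Over the average of its probe sets Wwtr1 was at 0.32 and 0.38, still called higher.

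Of the TEAD genes 3 of 4 were lower in number 1, beside 19.2% of all genes. Tead4 had 37.7, 208 and 165 in Zmpste24-/- cultures and 46.0, 192 and 171 in wild-type cultures. Both number 1 cultures were far below the rest, which were at 4.40 times their mean. The log2 differences were -1.91 and -1.67 (SE 0.20 each, limma adjusted p = 2.0e-04 and 4.0e-04). Tead1, the TEAD gene known for broad expression, was lower at log2 differences of -0.30 and -0.35 (SE 0.06 each), and Tead2, known from early embryonic tissue, at log2 differences of -0.80 and -0.48 (SE 0.13 each). The call of Tead2 was lost without wild-type culture 1, wild-type culture 3 or Zmpste24-/- culture 3 (adjusted p 0.117, 0.107 and 0.12 from number 3 by limma). Over the average of its probe sets Tead1 was at -0.58 and -0.61. Tead3 was not called, and its signals overlapped between numbers.

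Lats1 and Lats2, the kinases that hold YAP and TAZ in the cytoplasm, were not called by number, with F-test adjusted p of 0.81 and 0.401. Amotl2, an angiomotin-like protein that binds YAP and is itself a known YAP target, was lower in number 1. It had 2325, 3457 and 3705 in Zmpste24-/- cultures and 2083, 3240.4 and 3721 in wild-type cultures. The number 1 cultures were the lowest in each genotype, at log2 differences of -0.60 and -0.75 (SE 0.08 each, limma adjusted p = 5.9e-04 and 2.2e-04).

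The known targets of YAP and TAZ did not move in 1 direction. Of 22 listed genes, 2 of them members (Amotl2 and Lats2), 15 were called by number (68.2%, beside 47% of genes), with 7 higher (31.8%, beside 22.5%) and 8 lower (36.4%, beside 19.2%) in number 1. Their median log2 difference was -0.26 from number 2 and -0.50 from number 3. The lower ones were Ccn1, Ccn2, Ankrd1, Axl, Myof, Fjx1, Nuak2 and Amotl2. The higher ones were Asap1, Igfbp3, Gadd45a, Ccdc80, Ptpn14, Tgfb2 and Rbms3. Ccn2, a matricellular protein and the usual reporter gene of YAP activity, had 9272, 18064 and 17835 in Zmpste24-/- cultures and 10168, 19359.5 and 18058 in wild-type cultures. Number 1 was below all others, at log2 differences of -0.94 and -0.89 (SE 0.05 each, limma adjusted p = 1.1e-05 and 1.5e-05). Ankrd1, a stretch-responsive ankyrin repeat protein, had 762, 2899.9 and 3005 in Zmpste24-/- cultures and 699, 3437 and 3682 in wild-type cultures. The other 4 cultures were at 4.45 times number 1, with log2 differences of -2.09 and -2.16 (SE 0.12 each). Nuak2, a kinase of the AMPK family, was lower at log2 differences of -1.85 and -1.77 (SE 0.11 each).

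**Figure D4:**
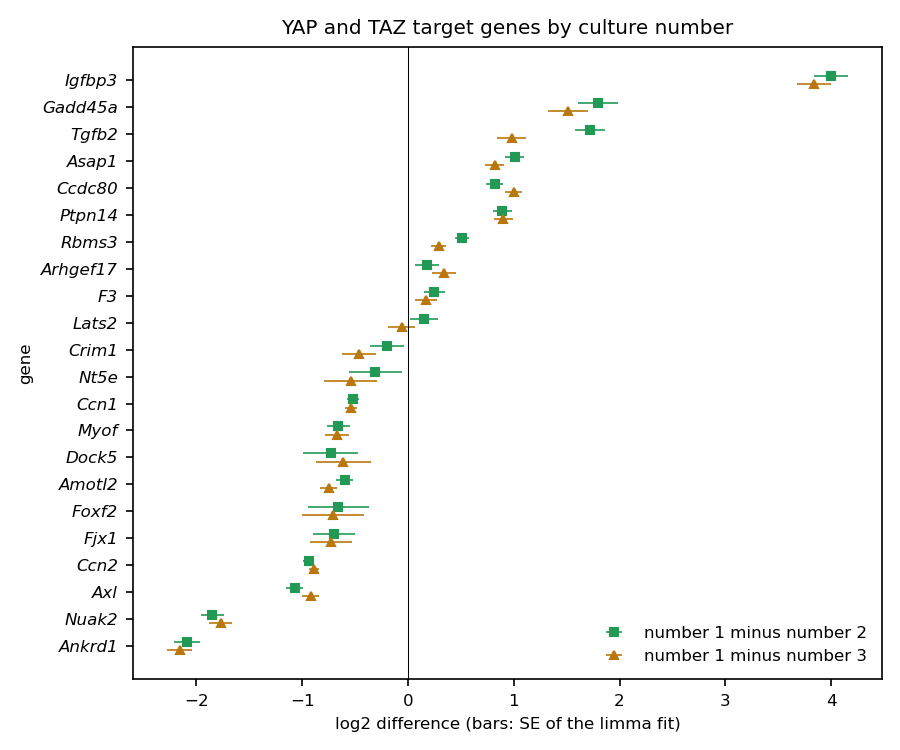
Log2 difference of number 1 minus number 2 (squares) and number 1 minus number 3 (triangles) for 22 listed YAP and TAZ target genes (rows), with bars of 1 SE of the limma fit. Igfbp3 is farthest to the right (4.0 and 3.84) and Ankrd1 farthest to the left (-2.09 and -2.16).

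Igfbp3, a binding protein of insulin-like growth factors, stood at the opposite end. It had 8011, 603 and 682 in Zmpste24-/- cultures and 10833, 535 and 593 in wild-type cultures. Number 1 was at 15.6 times the mean of the other 4, with log2 differences of 4.0 and 3.84 (SE 0.16 each, limma adjusted p = 5.2e-06 and 6.8e-06). Between the genotypes 0 of these 22 genes were called. Of the 3 with the smallest genotype p, Crim1, a transmembrane BMP-binding protein, had a log2 difference of 0.29 (SE 0.23), Dock5, an exchange factor for Rac, -0.39 (SE 0.36) and Rbms3, an RNA-binding protein, 0.12 (SE 0.19), each with adjusted p = 0.9999 by limma. Dock5 had 1 array apart, Zmpste24-/- culture 1 at 327, while the other 5 were at 749.9 to 854.

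The genes that surround the members were read from lists of their families. Of 18 tested integrin ligands 14 were called by number (77.8%, beside 47% of genes), 6 higher (33.3%, beside 22.5%) and 7 lower (38.9%, beside 19.2%) in number 1. Npnt, which encodes nephronectin, the ligand of the Itga8 product, had 364, 1566 and 1424 in Zmpste24-/- cultures and 329, 1072 and 1393 in wild-type cultures, lowest in number 1 where Itga8 was highest (log2 differences -1.86 and -1.98, SE 0.14 each). Lama4, a laminin alpha chain, was higher at log2 differences of 1.35 and 1.64 (SE 0.13 each), and Emilin1, an elastic fibre glycoprotein, at log2 differences of 1.51 and 1.67 (SE 0.12 each). Lamc1, the common laminin gamma chain, was lower at log2 differences of -0.70 and -0.65 (SE 0.10 each). Fn1, which encodes fibronectin, the ligand of the Itga5 product, did not pass in number (0.01 and 0.06, SE 0.08 each) or genotype (-0.07, SE 0.09). Col4a1 and Col4a2, the chains of basement membrane collagen, had genotype differences of -0.12 (SE 0.16) and -0.18 (SE 0.15), not called.

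Of 37 tested other focal adhesion genes 22 were called by number (59.5%, beside 47% of genes), 5 higher (a smaller share than the 22.5% of all genes) and 13 lower (35.1%, beside 19.2%) in number 1. One of the 5 higher, Lpxn, passed the filter only through number 1. Zyx, the tension-sensitive adhesion protein zyxin, had 2068, 5702 and 5639 in Zmpste24-/- cultures and 2670.1, 6189 and 5712 in wild-type cultures. Number 1 was the lowest in both genotypes, at log2 differences of -1.33 and -1.27 (SE 0.09 each, limma adjusted p = 3.0e-05 and 4.0e-05). Pdlim7, a PDZ and LIM domain protein of actin fibres, was lower at log2 differences of -1.05 and -0.94 (SE 0.09 each). Arhgef6, an exchange factor that binds parvin, was higher at log2 differences of 2.13 and 2.00 (SE 0.18 each), and Efs, a relative of the Bcar1 product, at log2 differences of 1.26 and 1.09 (SE 0.14 each). Between genotypes Sorbs3, which encodes vinexin, had 650.0, 787 and 849 in Zmpste24-/- cultures, against 827, 979 and 1021 in wild-type cultures. It was lower within each number, at a log2 difference of -0.30 (SE 0.18), with a limma adjusted p of 0.9999 and of 0.43 with the block. Parvb, another parvin, had 0.34 (SE 0.23) and Yes1, a Src family kinase, 0.22 (SE 0.18), neither called.

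Of 22 tested other Hippo pathway genes 14 were called by number (63.6%, beside 47% of genes), and the shares of 6 higher (27.3%) and 5 lower (22.7%) in number 1 were near those of all genes (22.5% and 19.2%). Ajuba, a LIM protein that restrains LATS kinases, had 1908, 4358 and 4351 in Zmpste24-/- cultures and 1964, 4399.7 and 4090.2 in wild-type cultures. It was low in number 1 in both genotypes, at log2 differences of -1.17 and -1.12 (SE 0.08 each, limma adjusted p = 2.4e-05 and 3.2e-05). Wwc1, which encodes the Hippo activator KIBRA, was lower at log2 differences of -1.43 and -1.61 (SE 0.16 each), and Stk4, which encodes a Hippo kinase, at log2 differences of -0.52 and -0.62 (SE 0.09 each). Fat4, an atypical cadherin, was higher at log2 differences of 1.76 and 1.59 (SE 0.16 each). The genotype differences with the smallest p, Frmd6, Taok2 and Vgll2, were -0.12 (SE 0.12), -0.22 (SE 0.27) and -0.23 (SE 0.21), and none was called. Every Zmpste24-/- culture lay below every wild-type culture in 1 of the 22 genes, Vgll2, beside 2.65% of all genes.

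Among 11 tested other cadherin and catenin genes 6 were called by number (54.5%, near the 47% of all genes), 2 higher (18.2%, beside 22.5%) and 4 lower (36.4%, beside 19.2%) in number 1. Cdh13, the GPI-anchored cadherin, was higher at log2 differences of 1.53 and 1.73 (SE 0.16 each) and Ctnna2, the neural alpha-catenin, at log2 differences of 1.58 and 1.14 (SE 0.20 each). Ctnnd2, a neural relative of Ctnnd1, was lower at log2 differences of -1.39 and -1.26 (SE 0.14 each), and Afdn, which encodes afadin, at log2 differences of -0.69 and -0.70 (SE 0.13 each). Jup, which encodes plakoglobin, had 395, 431 and 379 in Zmpste24-/- cultures, against 456, 569 and 448 in wild-type cultures. Its genotypes did not overlap, at -0.27 (SE 0.17, adjusted p = 0.9999 by limma). Non-overlap with Zmpste24-/- below was seen in 1 of these 11 genes, beside 2.65% of all genes. Cdh3 and Nectin3 had -0.19 (SE 0.20) and -0.16 (SE 0.21), not called. Of 4 tested other integrin subunits 1 was called by number (25%, beside 47% of genes), Itgb2, the leukocyte beta subunit. It had 175, 15.9 and 5.05 in Zmpste24-/- cultures and 61.3, 6.12 and 38.6 in wild-type cultures, with its 2 highest signals in number 1, where the macrophage markers were higher too. It passed the filter only through number 1, so that direction (log2 differences 2.19 and 1.84, SE 0.60 each) is a description and not a result of the test. Itgae, a leukocyte alpha subunit, had an F-test adjusted p of 0.0536, and Itga10 and Itga2b had 0.909 and 0.814. Like Itgb2, Itgae passed the filter only through number 1, so its p is not a result of the test either. Between genotypes 0 genes were called in any of these lists, with log2 differences of 0.15 for Itgb2 (SE 0.89), -0.21 for Itgae (SE 0.42) and -0.17 for Itga2b (SE 0.21).

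The members were also read by their other probe sets. More than 1 probe set was tested in 28 members. Of 25 other tested probe sets of called members 16 were called the same way, 2 the opposite way (Yap1 and Parva) and 7 in neither direction. Of 22 other probe sets of members that were not called, 3 were called in 1 direction, 1 each of Tln2, Tns1 and Lats2. Over the 16 settings run, 8 of the 22 called members were called the same way in every one: Itga1, Itga5, Itga6, Itga8, Itgb5, Bcar1, Tead4 and Amotl2. Without the intensity trend the calls of Itga7, Itgav, Tln1, Fermt2, Lims1, Ilk, Cdh11, Ctnna1, Yap1, Wwtr1 and Tead1 were lost.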

How the data were processed

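Deposited values are linear intensity (signal) for each probe set. Per the submitters' processing notes the authors used GCOS, the scanner maker's software, whose version and algorithm are not given in the sources consulted. Without the highest and the lowest 2% of probe sets each array averages 500, so a change in total RNA per cell cannot be seen. Median signal per array was 56.1 to 70.3, and the number of arrays limits the precision.

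The table has 45101 probe sets, 64 of them controls, which were not used. The platform annotation gives a single symbol for 34945 probe sets and several for 932, and does not list 9160. Values were used as log2(signal + 16), so fold changes of dim genes come out too small. The dimmest 40% (mean signal under 39.4) were dropped. The other 27022 probe sets, for 13038 named genes, went into limma 3.58.1 in R 4.3.3 (intensity trend, Benjamini-Hochberg over all probe sets, threshold 0.05). Genotype was tested without a covariate, and culture number with genotype as covariate. A gene was called higher or lower in number 1 where the F-test and both contrasts with number 1 passed. The script was tested on simulated data in which few probe sets differed by culture number, unlike in these arrays. That trial therefore cannot show how well the genotype test without the block finds differences here. Nothing states that the cultures came from separate embryos, so p-values measure the spread between these samples.

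The labels' protocols speak of pairs. Deviations from the group means correlated at 0.829, 0.588 and 0.574 between same-numbered cultures, all over the limit of 0.1. Across numbers 2 and 3 they correlated at 0.551 and 0.487, also over it. Because number 1 stood apart in both genotypes, the limit cannot decide whether a shared number marks a pair. The main genotype test used no pairing, and the culture number entered it only in the alternative with a block.

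The members, the pathway and marker lists, and the comparison by number were chosen with earlier results of these data known. Named genes are all members, up to 4 genes of each pathway list by smallest p for culture number and up to 3 by smallest p for genotype, and Zmpste24, Xist, Eif2s3y and Kdm5d. The 15 called targets, Dock5's single array, the second probe sets and the shown promoters were picked after their values were seen. Promoters came from a RefSeq table of GRCm38.p6; the labels name no genome build. Alternatives were pseudocounts of 1 and 64, no filter or 60%, quantile normalization, median centring, no intensity trend, a replicate block, a threshold of 0.1, averaging the probe sets of a gene, the brightest probe set not marked as shared, no genotype term, replicates 2 and 3 alone, and each array left out in turn.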

Additional observations from a re-analysis of the deposited data

Results flagged for a closer look

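Xist, one of 7 probe sets with a called interaction, had a genotype difference that changed with culture number. Its log2 difference, Zmpste24-/- minus wild type, was 0.32 in number 1, 5.81 in number 2 and 6.80 in number 3, and the interaction of genotype with number 1 had a limma adjusted p of 6.6e-04.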

How the results depend on the processing

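No member was called between the genotypes in any setting run, and the replicate block changed no member's call. Over all probe sets the genotype count was 0, and 5 with the replicate block, 20 with replicates 2 and 3 alone and 4 without wild-type replicate 1 (0 to 4 with each array left out). By culture number 22 members were called, 20 to 22 with each array left out and 11 without the intensity trend. Members higher in number 1 numbered 7, with 4 to 7 when each array was left out (4 without wild-type replicate 3), 3 with median centring and 3 without the intensity trend. Members lower in number 1 numbered 15, with 12 to 15 when each array was left out and 8 without the intensity trend. Over all probe sets 2 differed between numbers 3 and 2, and 16 without replicate 1 of both genotypes, a setting chosen after seeing the data. Yap1 reversed when the probe sets of a gene were averaged, to -0.30 (adjusted p = 0.0267) from number 2 and -0.24 (0.0561) from number 3, since its second probe set runs the other way. Median centring moved the median of all probe sets for number 1 minus number 2 to -0.09, against 0.06, and the share of higher calls to 44.3%, against 52.7%. Why the other counts moved was not tested.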
